A study of Mus musculus with 8 samples.

Results

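Pericytes are contractile mural cells that sit inside the basement membrane of capillaries, in contact with the endothelium. Their genes follow a few themes: surface and signalling proteins by which mural cells are recognised, an ATP-sensitive potassium channel, mitochondrial proteins that stand in for more common copies, a calcium entry channel, and the soluble guanylate cyclase through which nitric oxide relaxes the cell. Pulmonary capillaries multiply in the newborn lung while the alveoli form, and FGF10, a growth factor of the lung mesenchyme, acts mainly on the neighbouring epithelium.

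The 10 genes described here, Cspg4, Rgs5, Kcnj8, Abcc9, Higd1b, Cox4i2, Ndufa4l2, Trpc6, Gucy1a1 and Gucy1b1, were chosen by name as lung pericyte genes, out of 20842 genes named on the array. Each was read by 1 array feature, and the array's annotation lists Gucy1a1 and Gucy1b1 under the older symbols Gucy1a3 and Gucy1b3. None of the 10 is exclusive to pericytes: Rgs5, Cspg4 and both cyclase genes are also active in vascular smooth muscle, and Abcc9 and Kcnj8 also in heart muscle.

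RNA came from lungs of C57Bl/6J pups kept in a chamber with 20% oxygen from postnatal day 0 to day 3. The 4 pups whose titles read TG have the genotype label Fgf10 +/-, which stands for 1 disrupted copy of Fgf10, and the other 4 are labelled wild-type. Each lung was hybridised to a 1-colour (Cy3) Agilent array, and values are log2 signals, in which a difference of 1 is a 2-fold change. The sources used here give no sex, litter or exact age at collection.

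All 8 lungs had high signals for the lung markers Sftpc (15.98 to 15.99), Sftpb (13.83 to 14.35) and Nkx2-1 (9.75 to 10.73). The Fgf10 signal had log2 values of 7.55, 7.96, 7.96 and 8.33 in the lungs labelled Fgf10+/-, against 7.49, 7.81, 6.89 and 7.64 in wild-type lungs. It was thus not lower under the label (difference 0.49, SE 0.24, limma adjusted p = 0.507), and since the sources used here do not say where the probe lies relative to the disrupted part, this checks nothing, so every direction below rests on the labels. Wild-type replicate 4 stood apart. Its mean deviation from the 8-lung average was 3.37 for 14 skeletal muscle markers, 3.36 for 9 cartilage markers and 1.30 for 8 fat markers, against at most -0.27, -0.31 and 0.27 in the other 7 lungs.

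None of the 10 pericyte genes differed past the test between lungs labelled Fgf10+/- and wild-type lungs. The log2 differences ran from -0.27 for Kcnj8 to 0.49 for Rgs5, with 7 higher and 3 lower means. By limma, with p-values adjusted (Benjamini-Hochberg) over all 20842 genes, 0 of the 10 had an adjusted p under 0.05, as did 0% of all genes. None of the 10 reached an unadjusted p of 0.05 in this fit either. That level was passed by 4.74% of all genes with a higher and 6.29% with a lower mean under the Fgf10+/- label. The groups overlapped for all 10, whereas all 4 values lay above wild type for 2.99% of genes and below it for 4.4%. With a variance trend and robust settings in limma, 414 genes, or 1.99%, passed, and 0 of the pericyte genes were among them.

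The median difference of the 10 genes was 0.09, beside -0.00 over all genes, and it was 0.09 without wild-type replicate 4 as well. In whole-lung RNA, a change in the number of pericytes and a change in these RNAs per pericyte cannot be told apart. The intervals show how large a difference the arrays leave room for. For 8 of the 10 genes the 95% interval of the difference lay within a log2 of 1 in both directions, as it did for 72.6% of all genes, and for 5 it lay within 0.5 (29.8% of all genes). The 2 genes with wider intervals were Rgs5 and Kcnj8.

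**Figure D1:**
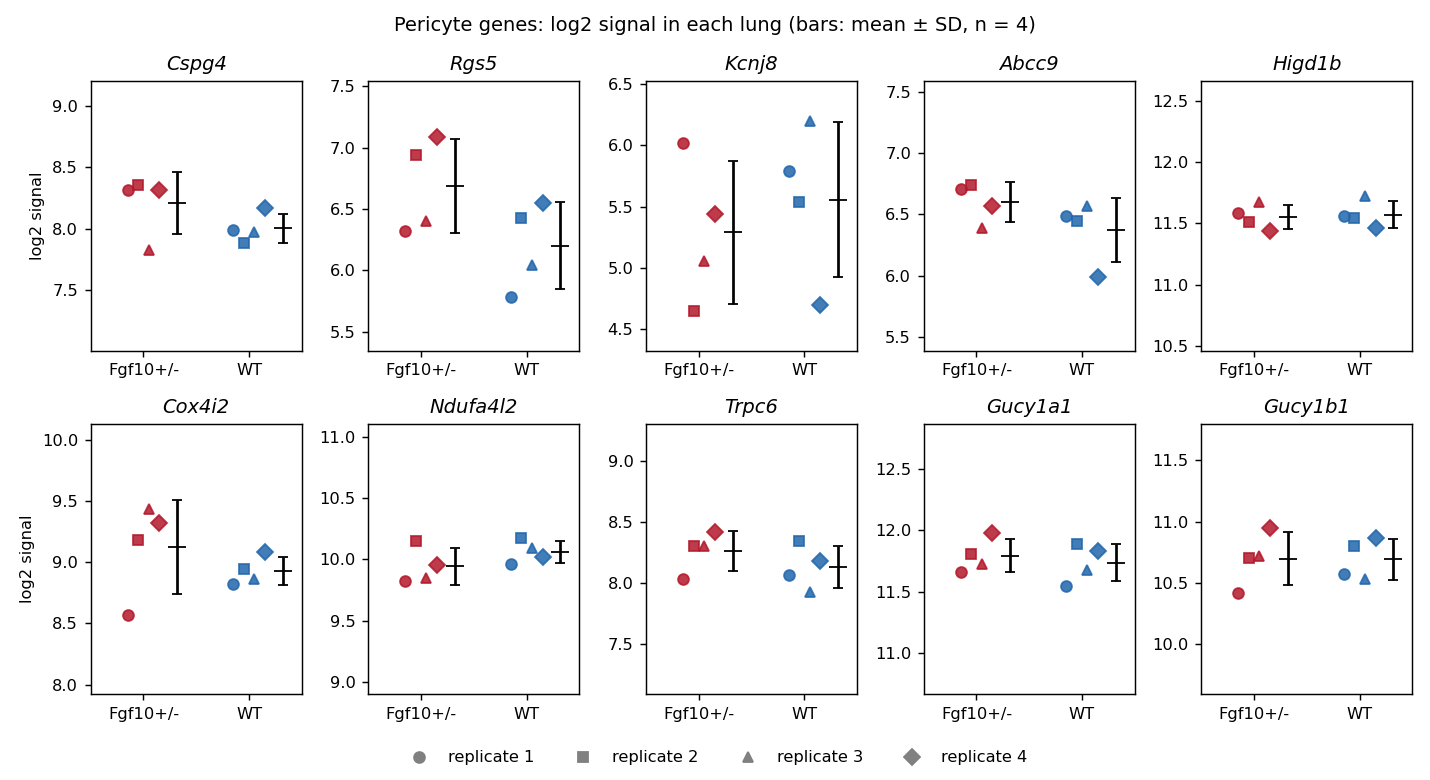
Log2 signal of each pericyte gene (vertical axis, 1 panel per gene, all panels spanning the same range of log2 units) in the 4 lungs labelled Fgf10+/- (red, left) and the 4 wild-type lungs (blue, right); symbols mark the replicate number and black bars the mean ± SD. The groups overlap in every panel, and Kcnj8 has the widest spread, with SDs of 0.59 and 0.63.

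Rgs5 encodes a regulator of G protein signalling that shortens the response to contractile agonists and is a widely used pericyte marker. Its log2 signals were 6.32, 6.94, 6.40 and 7.09 in the lungs labelled Fgf10+/-, against 5.78, 6.43, 6.04 and 6.55 in wild-type lungs. Replicates 2 and 4 under the Fgf10+/- label lay above every wild-type lung, and the other two lay within the wild-type range. The difference of 0.49 (SE 0.24, 95% interval -0.07 to 1.04) corresponds to 1.40-fold, had an unadjusted p of 0.0773 and did not pass (limma adjusted p = 0.515). It was the largest difference among the 10 genes in size, and it ranked 3127 among all genes by p. Leaving out 1 lung at a time moved it between 0.35 and 0.61.

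Cspg4 encodes NG2, a proteoglycan on the surface of pericytes and of smooth muscle cells. It had log2 signals of 8.32, 8.36, 7.83 and 8.32 in the lungs labelled Fgf10+/-, against 7.99, 7.88, 7.97 and 8.17 in wild-type lungs. Replicate 3 under the Fgf10+/- label was the lowest of all 8, while the other 3 were above every wild-type lung. The groups averaged 8.21 ± 0.25 and 8.00 ± 0.12 (SD, n = 4 each), and the difference of 0.21 (95% interval -0.13 to 0.54) did not pass (limma adjusted p = 0.672). Without that replicate the difference was 0.33, with an adjusted p of 0.37 in limma.

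Kcnj8 and Abcc9 lie next to each other on chromosome 6 with no annotated gene between them, and they encode the pore (Kir6.1) and the regulatory subunit (SUR2) of 1 potassium channel that opens when ATP is low and hyperpolarises mural cells. Their mean differences had opposite signs, and neither passed the test. Kcnj8 had log2 signals of 6.02, 4.65, 5.06 and 5.44 in the lungs labelled Fgf10+/-, against 5.79, 5.54, 6.20 and 4.70 in wild-type lungs. Both groups covered almost the same range, and the difference of -0.27 (SE 0.38, 95% interval -1.14 to 0.61) was smaller than either SD (limma adjusted p = 0.851). Without wild-type replicate 4, the lowest wild-type lung, it was -0.55, and without replicate 2 of the other group it was -0.05, so its size rested on single lungs.

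Abcc9 had log2 signals of 6.71, 6.74, 6.39 and 6.57 in the lungs labelled Fgf10+/-, against 6.49, 6.45, 6.57 and 5.99 in wild-type lungs. The lung farthest from the rest was wild-type replicate 4, the one with high skeletal muscle, cartilage and fat markers, where both channel genes had their lowest wild-type value. The difference was 0.23 (SE 0.16, 95% interval -0.13 to 0.59; limma adjusted p = 0.655), and 0.10 without that lung. Within the wild-type lungs both genes ran in the same order, replicate 3 highest, then 1, 2 and 4. Under the Fgf10+/- label the orders differed, with Kcnj8 lowest and Abcc9 highest in replicate 2.

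Cardiac muscle markers matter here because Abcc9 and Kcnj8 are also active in heart muscle. These markers had lower means under the Fgf10+/- label for 10 of 10 genes, with a median of -0.78, and 0 passed. Of the 10, 9 had an unadjusted p under 0.05 by limma and a lower mean, against 6.29% of all genes. For 3 of these markers all 4 values lay below wild type, against 4.4% of all genes. Their mean deviation ran from -0.52 to -0.02 in the lungs labelled Fgf10+/-, against 0.15 to 0.59 in wild-type lungs. Of these, Myh7, a myosin heavy chain of heart and slow muscle, differed by -1.44 (limma adjusted p = 0.0767) and Myh6, the alpha myosin heavy chain of heart, by -0.84 (limma adjusted p = 0.146). The part of heart muscle in the Kcnj8 and Abcc9 signals was not tested.

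Listed starts of these neighbours are shown so that the promoter letters of 2 genes for 1 channel can be compared. RefSeq promoter entries (build GRCm38.p6) were at hand for 7 of the 10 genes, in 8 windows since Gucy1a1 has 2 listed starts. The 250 bases before each listed start were searched on both strands. The windows of Abcc9, Trpc6 and Gucy1a1 lie inside the annotated gene, so their listed starts are not its outermost start. Those of Kcnj8, Rgs5, Gucy1b1 and Cspg4 lie just outside it. The motifs were TGGGAA, the core bound by the Notch effector RBPJ (in 21.6% of all 32851 promoter windows), ACGTG or GCGTG, the core of the hypoxia response element (38.6%), TAAACA, a forkhead core (12%), and the CArG box of serum response factor (1.47%). Capitals mark the matches, on either strand. For Kcnj8 the window is chr6:142571615-142571864 on the minus strand and for Abcc9 it is chr6:142702275-142702524, also on the minus strand.
Kcnj8: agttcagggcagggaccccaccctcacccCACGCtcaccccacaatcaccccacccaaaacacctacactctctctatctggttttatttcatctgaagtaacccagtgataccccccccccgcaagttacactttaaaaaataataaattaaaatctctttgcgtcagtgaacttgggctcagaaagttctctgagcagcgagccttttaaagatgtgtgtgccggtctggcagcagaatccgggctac
Abcc9: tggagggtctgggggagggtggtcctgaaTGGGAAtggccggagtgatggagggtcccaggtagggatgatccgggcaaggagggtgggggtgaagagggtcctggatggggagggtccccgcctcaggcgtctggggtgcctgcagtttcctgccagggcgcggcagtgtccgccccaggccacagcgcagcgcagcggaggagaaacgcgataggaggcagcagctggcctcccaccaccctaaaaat
Kcnj8 held a hypoxia core 221 bases before the start and no RBPJ core, and Abcc9 held an RBPJ core 221 bases before the start and no hypoxia core, so they shared none of the searched motifs. Their share of G and C letters was 49.2% and 66.8%.

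A further pair of windows shows the rarest of the motifs and the gene with the largest difference. The Trpc6 window is chr9:8543892-8544141 on the plus strand, and the Rgs5 window is chr1:169655251-169655500 on the plus strand.
Trpc6: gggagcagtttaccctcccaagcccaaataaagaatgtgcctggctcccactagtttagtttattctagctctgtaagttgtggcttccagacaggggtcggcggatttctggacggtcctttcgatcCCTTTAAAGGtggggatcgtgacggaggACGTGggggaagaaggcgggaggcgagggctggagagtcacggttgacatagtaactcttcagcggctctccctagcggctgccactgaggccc
Rgs5: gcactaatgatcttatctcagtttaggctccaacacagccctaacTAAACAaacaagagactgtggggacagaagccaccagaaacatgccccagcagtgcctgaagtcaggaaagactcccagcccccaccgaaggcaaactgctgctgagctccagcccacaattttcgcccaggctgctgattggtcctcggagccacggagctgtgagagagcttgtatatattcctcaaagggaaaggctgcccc
Trpc6 held the only CArG box among the 8 windows, its first base 122 bases before the start, and a hypoxia core at 94. Rgs5 held 1 forkhead core, at 205 bases, and none of the other motifs. These matches describe letters; binding was not measured in these samples.

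**Figure D2:**
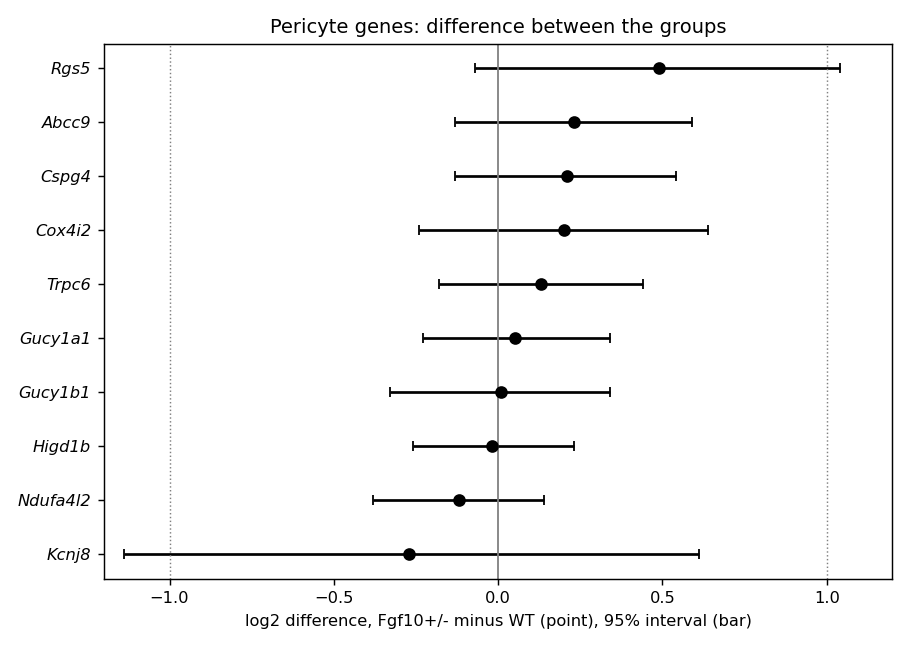
Log2 difference of each pericyte gene, lungs labelled Fgf10+/- minus wild-type lungs (horizontal axis), with points for limma's estimate and bars for its 95% interval; dotted lines mark a 2-fold change. All 10 intervals include 0, and those of Rgs5 and Kcnj8 pass a dotted line.

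Higd1b, Cox4i2 and Ndufa4l2 encode small mitochondrial proteins, each with a more widely used copy elsewhere in the genome (Higd1a, Cox4i1 and Ndufa4). Higd1b is among the most specific pericyte markers in lung, and it was nearly equal in the groups. Its log2 signals were 11.58, 11.51, 11.67 and 11.44 in the lungs labelled Fgf10+/-, against 11.56, 11.54, 11.72 and 11.46 in wild-type lungs. The groups covered nearly the same range. The difference was -0.02 (SE 0.11), and its 95% interval of -0.26 to 0.23 corresponds to 0.84-fold to 1.17-fold (limma adjusted p = 0.973). The pooled SD of 0.10 was the smallest of the 10 genes, where all genes had a median of 0.31.

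Cox4i2 encodes the variant of cytochrome c oxidase subunit 4 that is abundant in lung and takes part in oxygen sensing. It had log2 signals of 8.57, 9.18, 9.43 and 9.32 in the lungs labelled Fgf10+/-, against 8.82, 8.94, 8.86 and 9.08 in wild-type lungs. Replicate 1 under the Fgf10+/- label was the lowest of the 8 and the other 3 were the highest. The groups averaged 9.12 ± 0.38 and 8.92 ± 0.11 (SD, n = 4 each), a difference of 0.20 (95% interval -0.24 to 0.64; limma adjusted p = 0.763), and ranged from 0.10 without replicate 3 to 0.38 without replicate 1 of the lungs labelled Fgf10+/-. The common copy, Cox4i1, differed by -0.06 (SE 0.10; limma adjusted p = 0.867).

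Ndufa4l2 is induced by HIF1 and lowers mitochondrial respiration. It had log2 signals of 9.82, 10.15, 9.85 and 9.95 in the lungs labelled Fgf10+/-, against 9.96, 10.17, 10.09 and 10.02 in wild-type lungs. Replicates 1, 3 and 4 under the Fgf10+/- label lay below every wild-type lung, and replicate 2 lay near the top of the wild-type range. The difference was -0.12 (SE 0.11, 95% interval -0.38 to 0.14; limma adjusted p = 0.761). The copy Ndufa4 differed by 0.10 and Higd1a by -0.05, with limma adjusted p of 0.818 and 0.927.

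Trpc6 encodes a channel for calcium entry, opened by diacylglycerol, that takes part in the contraction of lung vessels in hypoxia. Its log2 signals were 8.03, 8.30, 8.30 and 8.42 in the lungs labelled Fgf10+/-, against 8.07, 8.34, 7.93 and 8.18 in wild-type lungs. Only replicate 4 under the Fgf10+/- label was above every wild-type lung. The difference of 0.13 (SE 0.13, 95% interval -0.18 to 0.44) did not pass (limma adjusted p = 0.778). It was 0.06 without wild-type replicate 3 and 0.21 without replicate 1 labelled Fgf10+/-. Of 6 other TRPC channel genes listed, 4 were measured and 0 passed. The smallest p among them belonged to Trpc5 (0.27, limma adjusted p = 0.503) and Trpc7 (-0.26, limma adjusted p = 0.654), both dim features that stayed below 3 in every lung.

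Gucy1a1 and Gucy1b1 encode the alpha and beta chains that together form soluble guanylate cyclase, the nitric oxide receptor that makes cyclic GMP. They are neighbours on chromosome 3 with no annotated gene between them. Gucy1a1 had log2 signals of 11.66, 11.81, 11.73 and 11.98 in the lungs labelled Fgf10+/-, against 11.55, 11.89, 11.68 and 11.83 in wild-type lungs. Gucy1b1 had 10.42, 10.70, 10.72 and 10.95 in the lungs labelled Fgf10+/-, against 10.57, 10.80, 10.53 and 10.87 in wild-type lungs. Both chains were highest in replicate 4 under the Fgf10+/- label and lowest in replicate 1 within that group, while among wild-type lungs replicates 2 and 4 were above 1 and 3 for both. The differences of 0.05 (95% interval -0.23 to 0.34) and 0.01 (95% interval -0.33 to 0.34) were smaller than the spread between replicates (limma adjusted p = 0.914 and 0.995).

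Windows of the cyclase genes are shown so that the letters of 2 genes for 1 enzyme can be compared. Whether promoter letters have a part in how the 2 chains varied was not tested. The second listed start of Gucy1a1 has the window chr3:82145074-82145323 and Gucy1b1 has chr3:82074712-82074961, both on the minus strand.
Gucy1a1: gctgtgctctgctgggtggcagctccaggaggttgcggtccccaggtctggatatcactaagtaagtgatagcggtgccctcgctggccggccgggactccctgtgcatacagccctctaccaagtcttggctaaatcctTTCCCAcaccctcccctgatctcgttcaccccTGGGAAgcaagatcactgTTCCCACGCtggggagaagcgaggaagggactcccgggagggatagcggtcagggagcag
Gucy1b1: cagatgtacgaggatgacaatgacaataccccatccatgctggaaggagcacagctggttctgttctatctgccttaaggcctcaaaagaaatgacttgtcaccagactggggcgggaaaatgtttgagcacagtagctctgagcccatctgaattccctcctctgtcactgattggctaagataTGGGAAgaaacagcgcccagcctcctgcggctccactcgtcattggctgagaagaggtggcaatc
The Gucy1a1 window held 3 RBPJ cores, at 110, 78 and 60 bases before the start, the last of them overlapping a hypoxia core at 56. Gucy1b1 held 1 RBPJ core, at 65 bases. The windows of the other Gucy1a1 start and of Cspg4, not printed here, held none of the motifs. In all, 3 of the 8 windows held an RBPJ core and 3 a hypoxia core.

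The rest of the nitric oxide and cyclic GMP pathway showed no common direction. Of 22 listed genes, all measured, 11 had a higher and 11 a lower mean under the Fgf10+/- label, 0 passed, and the median was -0.02. Pde1a, a phosphodiesterase that breaks down cyclic nucleotides, had the smallest p. Its log2 signals were 6.17, 6.18, 5.89 and 5.82 in the lungs labelled Fgf10+/-, against 5.21, 5.79, 5.22 and 5.70 in wild-type lungs, a difference of 0.54 that did not pass (limma adjusted p = 0.313). Gucy1b2, a further beta chain, differed by 0.74 from signals near the floor (limma adjusted p = 0.474). Nos3, the endothelial nitric oxide synthase, differed by -0.10 (limma adjusted p = 0.855), Prkg1, the kinase that cyclic GMP activates in mural cells, by 0.01 (limma adjusted p = 0.992), and Pde5a, the target of sildenafil, by -0.07 (limma adjusted p = 0.894). These last 3 were picked for their place in the pathway.

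Of 7 other inward rectifier and channel subunit genes, all 7 had a lower mean under the Fgf10+/- label, with a median of -0.42, and 0 passed. Over all genes, 49.8% had a higher mean. Kcnj2, Kcnj11, Kcnj12, Kcnj14 and Kcnj16 had means below 3.47, the median of all array features, in both groups, so most of these values come from dim features. Kcnj15 had log2 signals of 6.79, 6.69, 6.41 and 6.54 in the lungs labelled Fgf10+/-, against 7.41, 7.33, 7.33 and 6.82 in wild-type lungs. The groups did not overlap, and the difference was -0.62 (SE 0.16; limma adjusted p = 0.231). Kcnj16 differed by -0.42 (limma adjusted p = 0.304) and did not overlap either, at dim signals of 1.80 to 2.59. These were the 2 of 7 that were lower without overlap (4.4% of all genes). They were also the 2 of 7 with an unadjusted p under 0.05 by limma (6.29% of all genes, with a lower mean). Among 8 RGS proteins of the family of Rgs5, 5 had a higher and 3 a lower mean and 0 passed, with Rgs8 at -0.46 (limma adjusted p = 0.587) and Rgs16 at 0.34 (limma adjusted p = 0.623) at the smallest p.

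**Figure D3:**
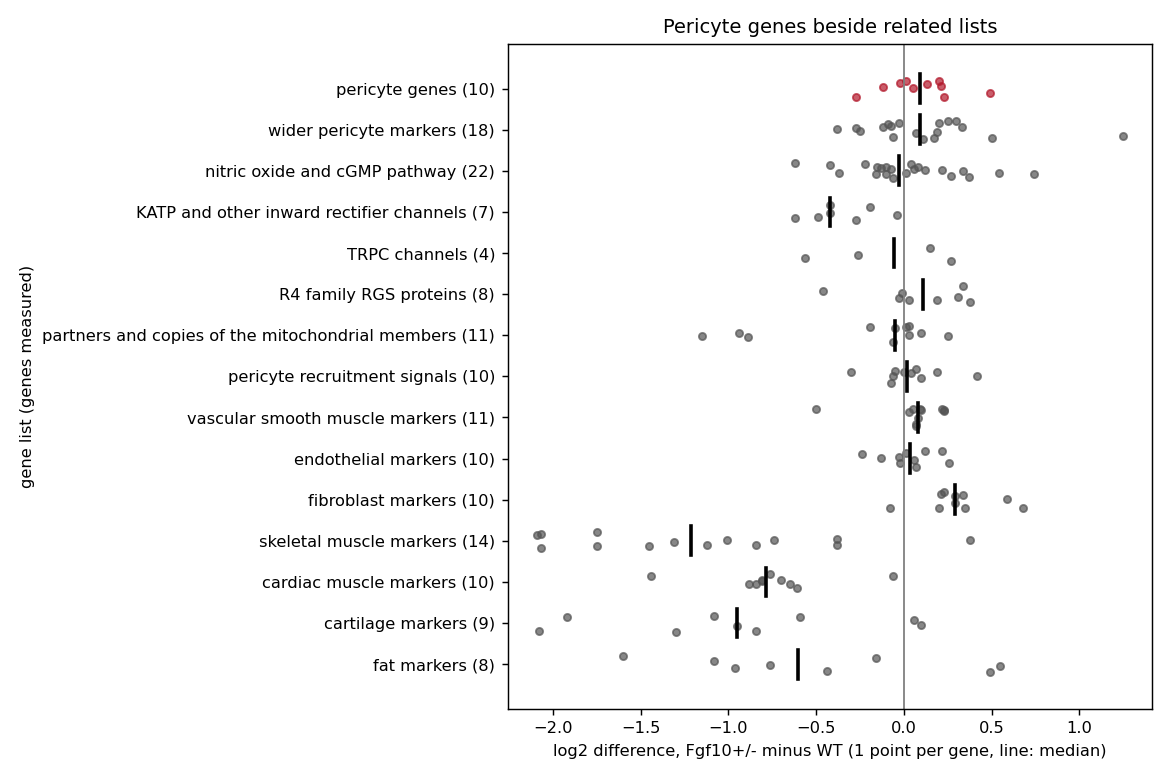
Log2 difference, lungs labelled Fgf10+/- minus wild-type lungs (horizontal axis), of each gene in the pericyte list (red, top) and in the related lists (grey), with a black line at each list's median and the number of genes measured in brackets. The pericyte genes lie between -0.27 and 0.49 around a median of 0.09, and the muscle, cartilage and fat lists reach further to the left.

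A wider list of 19 pericyte markers, of which 18 were measured, had 10 higher and 8 lower means under the Fgf10+/- label and a median of 0.09, the same as that of the 10 genes, and 0 passed. Pdgfrb, the receptor through which endothelial PDGF-B recruits pericytes, had log2 signals of 9.66, 9.82, 9.92 and 9.97 in the lungs labelled Fgf10+/-, against 9.60, 10.31, 9.71 and 10.11 in wild-type lungs. All 4 lay inside the wild-type range (difference -0.09, 95% interval -0.50 to 0.31; limma adjusted p = 0.894). Notch3, the mural cell Notch receptor, differed by 0.11 (limma adjusted p = 0.809). Both were named after their values were seen, as defining markers.

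Of the 18 genes, 3 had an unadjusted p under 0.05, all with a higher mean, a level that 4.74% of all genes passed in that direction. Heyl, a Notch target in mural cells, had log2 signals of 8.96, 9.28, 8.94 and 9.23 in the lungs labelled Fgf10+/-, against 8.41, 8.74, 8.33 and 8.93 in wild-type lungs. All 4 lay above the wild-type lungs, by a narrow margin at 8.94 against 8.93, and the difference of 0.50 did not pass (limma adjusted p = 0.312). Postn, a matrix protein also made by fibroblasts, differed by 0.33 (limma adjusted p = 0.371). Vtn, vitronectin, named after its values were seen, differed by 1.25 with a 95% interval of 0.11 to 2.40 (limma adjusted p = 0.412). Its 4 values under the Fgf10+/- label, 5.71 to 7.18, lay above every wild-type lung. Wild-type replicate 1, at 3.63, lay far below the other wild-type lungs at 5.44 to 5.57. Heyl and Vtn were thus 2 of the 18 that were higher without overlap (2.99% of all genes).

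Of 10 signals that recruit or hold pericytes, 6 had a higher and 4 a lower mean and 0 passed, with a median of 0.02. Jag1, a Notch ligand, differed by -0.30 (limma adjusted p = 0.554) and Pdgfb by 0.19 (limma adjusted p = 0.684).

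Markers of neighbouring cell types gave the setting. Of 11 smooth muscle markers, 10 had a higher mean under the Fgf10+/- label, with a median of 0.08. Of all genes, 49.8% had a higher mean. The list was drawn up for vessels, but its genes do not separate vessels from other smooth muscle. Without overlap between the groups, and higher, were 3 of the 11 (2.99% of all genes), among them Acta2, smooth muscle actin, at 0.23 (limma adjusted p = 0.407) and Actg2, enteric smooth muscle actin, at 0.22 (limma adjusted p = 0.451). The third, Cnn1, named after its values were seen, differed by 0.23 (limma adjusted p = 0.503). Of 10 endothelial markers, 6 had a higher mean, with a median of 0.04. Emcn differed by 0.26 (limma adjusted p = 0.549) and Ednrb by -0.24 (limma adjusted p = 0.538).

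Fibroblast markers had a higher mean for 9 of 10 genes, with a median of 0.29, and 0 passed. Of the 10, 5 had an unadjusted p under 0.05 by limma and a higher mean, against 4.74% of all genes. The collagen-binding proteoglycan gene Dcn differed by 0.59 (limma adjusted p = 0.316) and the matrix protein gene Dpt by 0.68 (limma adjusted p = 0.328). The mean deviation of the fibroblast list ran from 0.05 to 0.20 in the lungs labelled Fgf10+/-, against -0.33 to 0.11 in wild-type lungs. For the 10 pericyte genes it ran from -0.03 to 0.18 in the lungs labelled Fgf10+/-, against -0.11 to 0.03 in wild-type lungs. Whether fibroblast content has a part in the pericyte values was not tested.

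Lung by lung, the 10 genes did not move as a block. Replicate 4 under the Fgf10+/- label had the highest value of 4 of them, Rgs5, Trpc6, Gucy1a1 and Gucy1b1, and the lowest of Higd1b. Replicate 1 of that group had the lowest value of 3, Cox4i2, Ndufa4l2 and Gucy1b1, and wild-type replicate 3 had the highest Kcnj8 and Higd1b.

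**Figure D4:**
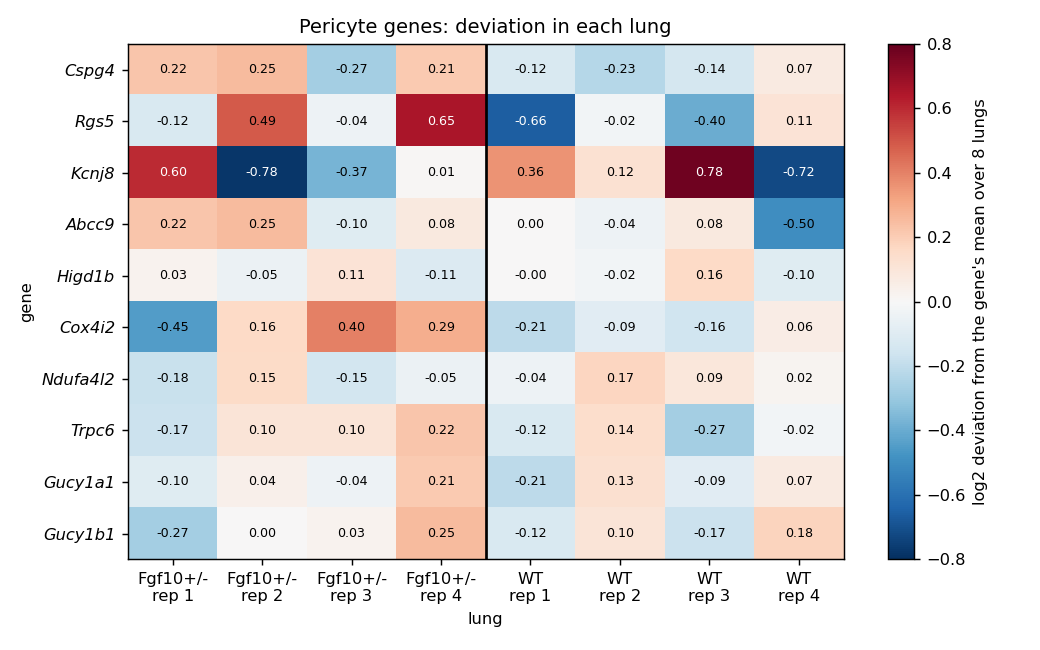
Log2 deviation of each pericyte gene (rows) from its own mean over the 8 lungs, for the 4 lungs labelled Fgf10+/- (left of the line) and the 4 wild-type lungs (right); red is above and blue below the mean. No column is of 1 colour throughout: replicate 4 under the Fgf10+/- label is above the mean for 8 of 10 genes, and wild-type replicate 1 for 2.

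The spread within groups also differed between the genes, from a pooled SD of 0.10 for Higd1b to 0.61 for Kcnj8. Profiles over the 8 lungs were compared after taking out group means and dividing by the SD, as the root mean square difference from the mean profile of the 10 genes, where 0 is an identical shape. Gucy1a1 (0.46) and Rgs5 (0.49) were nearest to that mean profile, while Kcnj8 (1.52) and Higd1b (1.60) were farthest. The members form part of that mean, so their values cannot be set against those of other genes. Among the 10412 other genes with a mean signal above the median of all genes, where the median of the measure was 1.30, the 5 with the nearest profiles were Cdh4 (0.11), which encodes R-cadherin, Fam3a (0.19), Naip5 (0.20), a sensor of bacterial flagellin, Shd (0.26) and Maea (0.28), part of a ubiquitin ligase. Such likeness rests on 8 lungs, which all profiles share. Cdh4 differed by 0.37 (95% interval -0.09 to 0.83; limma adjusted p = 0.555).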

How the data were processed

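Log2 signals of 62976 features on 8 arrays were used as the authors deposited them. RNA was isolated with a miRNeasy kit and amplified with Agilent's Low-Input QuickAmp kit, per the labels' protocols. The authors used limma, per the submitters' processing notes, where no version is named. The values ran from 1.51 to 15.99 and had been brought to 1 distribution (sorted values differed by at most 0.0042 between arrays); the sources used here do not give the background correction or spot flags, and differences near the floor or the top may be compressed.

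Features were named from the platform annotation (31465 with 1 symbol, 0 with several, 31511 with none). Symbols were updated through RefSeq accessions (GRCm38.p6), with 29050 features matched; 40 named features lacking a value on some array were dropped. The feature with the highest mean stood for its gene. The test was limma 3.58.1 in R 4.3.3 (group only, eBayes, two-sided, Benjamini-Hochberg over 20842 genes, threshold 0.05), checked on simulated data; the number of arrays limits its precision. Pairs of arrays correlated between 0.977 and 0.986, and 0 pairs were identical. The submitters describe the samples as independent.

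The pericyte genes and the lists were chosen with earlier results of these data known. From each list the 2 genes with the smallest p were named, beside exceptions stated in the text. Alternatives were the mean of all features, every feature, further quantile normalization, median or 75th percentile centring, leaving out dim genes, array weights, a robust fit with a variance trend, a block for the replicate number, a covariate for sex from Xist and Y-linked genes, and leaving out lungs. Figures were drawn with matplotlib 3.10.9.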

Additional observations from a re-analysis of the deposited data

Results flagged for a closer look

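Among 22 groups of 4 lungs looked at (the 10 pericyte genes and Fgf10, in each genotype), 1 held a lung far from the other 3, and chance flags about 1 group in 20. It was Cspg4 in replicate 3 labelled Fgf10+/-, at a log2 signal of 7.83, where the other 3 lungs of that group had 8.32, 8.36 and 8.32 and the wild-type lungs 7.99, 7.88, 7.97 and 8.17.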

How the results depend on the processing

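The count of pericyte genes past an adjusted p of 0.05 was 0 in every alternative tried, and their lowest adjusted p in any of them was 0.265 (limma), for Cspg4 without both wild-type replicate 4 and replicate 3 labelled Fgf10+/-. Their median difference of 0.09 ranged from 0.05 to 0.13 with 1 lung left out at a time, and was 0.04 with a sex covariate and 0.12 without both lungs named above. The count over all genes was 0 in the main setting. It was 38 without genes below the 25th percentile of signal and 288 without those below the 50th, which also leaves out Kcnj8, 414 with a variance trend and robust settings, 3 with array weights, and 0 to 1 with 1 lung left out (1 without wild-type replicate 4). The cause was not tested. The 3 differences nearest to 0 changed sign. Higd1b was 0.0063 with quantile normalization, 0.0071 with median centring and 0.0134 with the sex covariate. Gucy1b1 was -0.0483 with the sex covariate. With 1 lung or both of those lungs left out, Higd1b ranged from -0.0910 to 0.0333, Gucy1b1 from -0.0778 to 0.0979 and Gucy1a1 from -0.0082 to 0.1069. With the replicate number as a block 0 genes passed, the median stayed at 0.09, and Rgs5 had an unadjusted p of 0.00514 with an adjusted p of 0.298 in limma. The labels give no pairing behind the numbers, and deviations from the group means correlated between 0.02 and 0.11 in same-numbered lungs.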

Other observations

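Of 11 genes for copies or partners of the mitochondrial pericyte genes, 0 passed, and the median was -0.05. The subunits of cytochrome c oxidase used by heart and skeletal muscle had the lowest values. Cox6a2 had log2 signals of 8.17, 8.20, 8.98 and 8.50 in the lungs labelled Fgf10+/-, against 9.28, 8.92, 9.38 and 9.84 in wild-type lungs, a difference of -0.89 (limma adjusted p = 0.247). Cox7a1 differed by -0.94 (limma adjusted p = 0.259), and Cox8b, named after its values were seen, by -1.15 (limma adjusted p = 0.422), with its highest value, 9.68, in wild-type replicate 4. The more common copies Cox6a1 (0.03), Cox7a2 (0.03) and Cox8a (0.01) had differences near 0. Replicate 3 had the highest value of all 3 muscle-type genes among the lungs labelled Fgf10+/-, and its cardiac marker deviation of -0.02 was the highest of that group too. Among wild-type lungs all 3 genes were highest in replicate 4, whose cardiac marker deviation of 0.15 was the lowest of that group. Whether muscle content has a part in these values was not tested.

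Skeletal muscle markers had a median difference of -1.21, or -0.30 without wild-type replicate 4, cartilage markers -0.95, or 0.12 without it, and fat markers -0.60, or -0.01 without it. The 2 genes of smallest p were Atp2a1 (-0.74, limma adjusted p = 0.275) and Ckm (-1.12, 0.396) for skeletal muscle, Chad (-1.30, 0.313) and Matn3 (-0.59, 0.586) for cartilage, and Cidec (-1.60, 0.177) and Plin5 (-0.76, 0.185) for fat. In the same order, 3 of 14, 1 of 9 and 2 of 8 genes had an unadjusted p under 0.05 by limma and a lower mean (6.29% of all genes). All 4 values lay below wild type for 2 of 14, 0 of 9 and 2 of 8 (4.4% of all genes). The 2 fat genes were Cidec and Plin5.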
